A study of Homo sapiens with 29 samples.

Results

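The comparison described here set tumors given Helicon4 at 100 mpk against tumors given vehicle, both labelled 48 h, across all genes that could be tested. It rests on 15 of the 29 libraries of the study, 5 with Helicon4 at 100 mpk and 10 with vehicle, and on 13373 of the 13492 genes in the table, those with at least 1 CPM (read counts per library size, as scaled by the authors) in at least 5 libraries. PolyA RNA was sequenced from xenografts of COLO320DM, a human colorectal adenocarcinoma line in which MYC is amplified and APC is truncated. The tumors grew in mice that were randomized before dosing. Helicon4 is titled a helicon peptide that targets β-catenin and its TCF partners. The other groups were Helicon4 at 30 mpk (n = 6 libraries) and Helicon4neg at 30 mpk (n = 8), all at 48 h, with mpk the labelled unit of dose. It is not stated how Helicon4neg relates to Helicon4. No structure of either compound, vehicle dose or host strain is labelled, and there is no statement that replicates came from separate animals, so p-values measure the spread between these libraries.

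In Wnt signaling, β-catenin is destroyed in the cytoplasm by a complex built on APC and AXIN proteins unless a Wnt ligand stops it. When APC is truncated, β-catenin persists, enters the nucleus and binds TCF and LEF factors, which then activate their targets. Many of those targets are inhibitors of the pathway itself, such as the DKK, NKD and AXIN2 genes, and in the intestine the pathway maintains stem cells, Paneth cells and growth. The comparison asks which transcripts moved when a compound aimed at this nuclear step was given at its higher dose.

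The reads behind each library, recovered from the values, numbered 34.3 to 61.6 M (10 to the power 6) at 100 mpk and 26.8 to 60.9 M with vehicle. In the 15 libraries, 6 of 9 listed markers of the cell line were among the genes tested, EPCAM, KRT8, KRT18, CDX2, CDH17 and MYC, while KRT19, CDH1 and VIL1 were not. The 5 libraries at 100 mpk carried 2 title codes of unstated meaning, neither of which occurs among the vehicle libraries, so code and treatment cannot be told apart. A fit with this code as a block, the code-blocked fit, can compare them only through the other groups. Library 5 at 100 mpk had a code of its own and did not bear on that comparison. The other treated libraries shared a code only with library 6 of Helicon4 at 30 mpk. Of that group only library 1 shared a code with Helicon4neg. Calls kept, lost or turned in the code-blocked fit thus hang on those single libraries. The standard errors of this fit were 3.22 times as large at the median, and it called 141 genes (1.05% of those tested).

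A run of letters that TCF factors bind stands in the upstream sequence of several genes that fell most, and a run bound by interferon-activated factors in that of genes that rose. The sequences below show the 250 bases before the first listed RefSeq start (GRCh38.p14), 5′ to 3′ along the gene. Capitals mark every match on either strand to the TCF letters, which are CTTTGAT and its variants that end in TT (as CTTTGTT), in AA (as CTTTGAA) or in TA (as CTTTGTA), in the first 4 promoters. SP5 lies at chr2:170715087-170715336 on the plus strand and has 3 matches, the nearest starting 84 bases before the start of the gene. DKK1 (chr10:52314031-52314280, plus strand) has 2, ZAP70 (chr2:97713326-97713575, plus strand) has 1 and DACT1 (chr14:58633811-58634060, plus strand) has 1.
SP5: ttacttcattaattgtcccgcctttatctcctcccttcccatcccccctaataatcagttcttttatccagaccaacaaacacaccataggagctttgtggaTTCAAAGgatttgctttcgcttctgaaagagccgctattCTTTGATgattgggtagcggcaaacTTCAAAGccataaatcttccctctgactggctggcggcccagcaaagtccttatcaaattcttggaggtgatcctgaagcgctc
DKK1: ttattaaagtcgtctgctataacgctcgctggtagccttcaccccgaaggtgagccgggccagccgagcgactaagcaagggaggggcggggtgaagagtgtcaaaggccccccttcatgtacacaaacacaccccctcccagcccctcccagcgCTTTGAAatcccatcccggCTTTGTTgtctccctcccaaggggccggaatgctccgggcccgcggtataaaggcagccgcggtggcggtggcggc
ZAP70: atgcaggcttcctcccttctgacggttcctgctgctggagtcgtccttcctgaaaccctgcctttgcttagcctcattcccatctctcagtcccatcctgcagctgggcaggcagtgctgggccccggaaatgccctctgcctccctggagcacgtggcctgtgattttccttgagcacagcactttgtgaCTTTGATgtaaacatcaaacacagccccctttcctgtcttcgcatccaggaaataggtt
DACT1: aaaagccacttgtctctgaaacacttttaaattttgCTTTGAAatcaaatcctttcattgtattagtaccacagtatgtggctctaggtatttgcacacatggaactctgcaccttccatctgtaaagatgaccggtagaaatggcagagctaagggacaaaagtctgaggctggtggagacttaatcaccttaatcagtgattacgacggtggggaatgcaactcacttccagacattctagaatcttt

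In the next 3 promoters, capitals mark matches on either strand to the core of the interferon-stimulated response element, TTTC and TTTC with any 2 bases between them. They belong to interferon-stimulated genes that rose. IFIT1 lies at chr10:89392373-89392622 (plus strand), IFIT3 at chr10:89327747-89327996 (plus strand) and BST2 at chr19:17405631-17405880 (minus strand). Each has 2 matches, which overlap in BST2.
IFIT1: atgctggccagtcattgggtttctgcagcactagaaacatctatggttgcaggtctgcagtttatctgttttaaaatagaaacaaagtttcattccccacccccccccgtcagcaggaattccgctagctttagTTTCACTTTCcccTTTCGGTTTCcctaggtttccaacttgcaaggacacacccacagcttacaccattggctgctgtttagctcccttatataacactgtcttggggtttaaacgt
IFIT3: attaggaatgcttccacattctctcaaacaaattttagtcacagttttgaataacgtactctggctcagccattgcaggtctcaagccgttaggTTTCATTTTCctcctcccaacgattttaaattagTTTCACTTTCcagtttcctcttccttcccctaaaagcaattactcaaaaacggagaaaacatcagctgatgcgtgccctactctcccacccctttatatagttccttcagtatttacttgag
BST2: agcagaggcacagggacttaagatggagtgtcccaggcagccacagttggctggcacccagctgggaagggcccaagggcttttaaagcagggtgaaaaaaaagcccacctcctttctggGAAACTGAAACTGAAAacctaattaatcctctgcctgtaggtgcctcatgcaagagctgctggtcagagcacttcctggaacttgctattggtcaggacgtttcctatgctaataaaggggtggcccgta

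A 300-base promoter window, 250 bases before the start and 50 after it, was at hand for 10555 of the 13373 genes (78.9%). The TCF letters occurred in 8.7% of these windows. They occurred in 8.38% of genes that fell, in 12.3% of those that fell by at least 1.5-fold, in 22.2% (26 of 117) of those that fell by at least 2-fold and in 6 of the 16 that fell by at least 4-fold. Among genes that rose by at least 2-fold the share was 13.6% (16 of 118). On the Wnt lists the letters occurred in 2 of 8 windows of secreted antagonists and in 1 of 9 (11.1%) of intracellular feedback regulators. The promoters printed above all hold matches, so they do not stand for these shares. The response element core stood in 2.75% of all windows, in 3.71% of genes that rose and in 1.84% of genes that fell. At a change of at least 1.5-fold the shares were 5.83% of genes that rose and 2.82% of genes that fell. Of the interferon-stimulated genes with a window, 21 of 31 held the core. The windows were also scanned for letters of other motifs, named E-box, E2F and CARE. E-box letters stood in 10.1% of all windows, 6.97% of genes that rose and 12.7% of those that fell. For E2F the shares were 4.55%, 2.8% and 5.51%. CARE letters stood in 1.6% of all windows, and in 4.24% and 1.71% of genes that rose and fell by at least 2-fold. No test was made for any motif, and a match is neither a binding site nor a cause. Windows also differed in base composition, with a median GC content of 60.2% among genes that rose by at least 2-fold, 64.3% among those that fell by at least 2-fold and 65.3% over all.

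**Figure D1:**
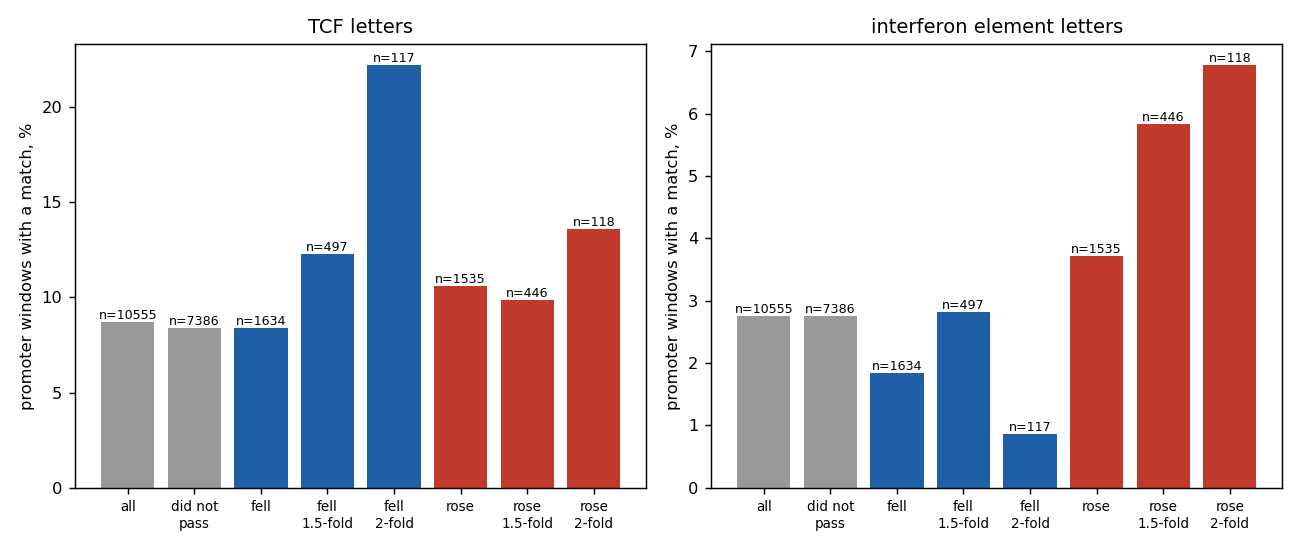
Share of 300-base promoter windows (y axis, percent) with at least 1 match to the TCF letters (left) or the interferon response element core (right), for all tested genes with a window, those that did not pass, and those that fell or rose, in all or by at least 1.5-fold or 2-fold; n is the number of windows. The TCF share was 22.2% among genes that fell by at least 2-fold against 8.7% over all, and the interferon share was 6.78% among genes that rose by at least 2-fold against 2.75% over all.

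At 100 mpk 1913 genes rose and 2130 fell against vehicle (limma, adjusted p under 0.05), which is 14.3% and 15.9% of the genes tested and 30.2% together. A log2 fold change is the difference between group means of log2(CPM + 1), given ± its standard error, and understates the change of genes near 1 CPM. Most changes were small: 582 genes rose (4.35%) and 676 fell (5.05%) by at least 1.5-fold, 157 (1.17%) and 175 (1.31%) by at least 2-fold, and 15 (0.112%) and 29 (0.217%) by at least 4-fold. In 625 genes every library at 100 mpk was above every vehicle library (4.67%), and in 552 every one was below (4.13%), which is 8.8% together. Rises were more frequent among weakly expressed genes, at 21.7% in the lowest quartile of mean CPM against 8.02% in the highest, where 22.5% fell. They were also more frequent among long genes, at 20.1% in the quartile of longest genes against 9.42% in that of the shortest. For each library, log2 values less the gene's mean over all libraries were fitted on log2 gene length. This length slope was 0.0391 ± 0.0536 at 100 mpk (SD, n = 5) and -0.0398 ± 0.085 in vehicle (SD, n = 10). A two-sided exact permutation test gave p = 0.0719, and 0.144 after adjustment over 8 library measures. The part of the slope in the shares above was not tested.

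**Figure D2:**
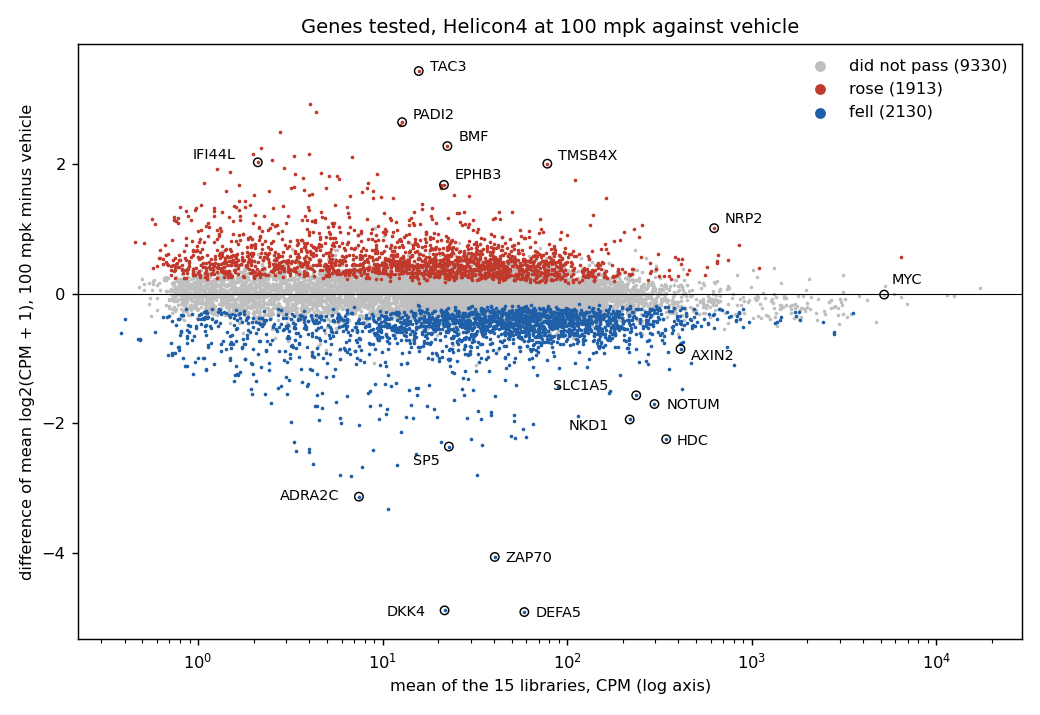
Each point is 1 of the 13373 genes tested: x axis, mean CPM over the 15 libraries (log axis); y axis, difference of mean log2(CPM + 1) between 100 mpk and vehicle; red, rose; blue, fell; grey, did not pass. DEFA5 (-4.91) and DKK4 (-4.88) lie lowest and TAC3 (3.43) highest, while MYC lies far to the right at -0.02.

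Secreted and surface antagonists of Wnt mostly fell. Of 16 measured, 11 fell (68.8% against 15.9% of all genes) and 3 rose, with a median log2 fold change of -0.51 beside 0.01 over all genes. DKK4, which blocks the LRP co-receptors, ranged in vehicle from 15.8 to 51.9 CPM with a median of 27.5, and stood at 0, 0.0567, 0.0801, 0.0963 and 0.0334 CPM in the 5 libraries at 100 mpk. It was all but absent from each, on 13 reads in all against 14725 in vehicle (log2 fold change -4.88 ± 0.23, adjusted p = 5.08e-16). DKK1, of the same family, ranged from 11.1 to 25.9 CPM in vehicle (median 16.3) and stood at 1.5, 2.33, 1.09, 2.81 and 1.74 CPM (-2.64 ± 0.18, adjusted p = 1.05e-12). WIF1, which binds Wnt ligands directly, ranged from 31.3 to 58 CPM (median 47.5) and stood at 5.06, 8.59, 7.8, 7.8 and 15.9 CPM (-2.33 ± 0.20, adjusted p = 1.67e-10). In all 3 genes every library at 100 mpk lay below every vehicle library, and library 5 was the highest of the 5 for WIF1.

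APCDD1, a membrane protein that binds Wnt and LRP5, ranged from 863 to 1108 CPM in vehicle (median 967) and stood at 368, 444, 442, 422 and 614 CPM (-1.10 ± 0.10, adjusted p = 2.82e-10). NOTUM, which strips the lipid from Wnt ligands, went from a median of 381 CPM (273 to 476) to 123, 101, 96.1, 108 and 164 CPM (-1.70 ± 0.14, adjusted p = 1.84e-10). The groups did not overlap for either. SFRP5 (-1.55), a secreted Frizzled-related protein, and KREMEN2 (-1.42), a co-receptor of the DKK proteins, also fell, as did SFRP2 (-0.47), the ubiquitin ligase gene ZNRF3 (-0.47) and KREMEN1 (-0.47). DKK3 (0.49), DKK2 (0.44) and SOSTDC1 (0.53) rose, from vehicle medians of 4.82, 0.609 and 6.14 CPM. RNF43, the partner of ZNRF3, stood at -0.10 ± 0.10 (adjusted p = 0.469). DKK4, DKK1, WIF1 and APCDD1 passed in the code-blocked fit, and the other calls named were lost with it (adjusted p from 0.217 to 0.996), with SOSTDC1 at -0.0059. The call of KREMEN1 was also lost without library 2 at 100 mpk (adjusted p = 0.076).

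Among 14 intracellular feedback regulators 7 fell (50% beside 15.9% of all genes), with a median of -0.13, and the 2 that rose (14.3%) were at the share of all genes. NKD1 (chr16:50548330-50649249, GRCh38), which acts on Dishevelled, ranged from 214 to 328 CPM in vehicle (median 299) and stood at 56.9, 70.9, 66.1, 79 and 105 CPM (-1.94 ± 0.12, adjusted p = 3.03e-13). Its relative NKD2 ranged from 106 to 218 CPM (median 140) and stood at 46.7, 27.3, 34.9, 43.4 and 48.2 CPM (-1.89 ± 0.16, adjusted p = 9.67e-11). DACT1, a Dishevelled antagonist, ranged from 20.8 to 31.5 CPM (median 26.9) and stood at 4.96, 4.68, 6.27, 9.93 and 6.35 CPM (-1.90 ± 0.12, adjusted p = 5.35e-13). All 3 were below every vehicle library in each treated library. AXIN2 fell less, from a median of 500 CPM (397 to 541) to 242, 309, 253, 221 and 314 CPM (-0.85 ± 0.09, adjusted p = 3.07e-08), again without overlap, and AXIN1 (-0.44) and PRICKLE1 (-0.54) fell too. BTRC, the F-box protein that marks β-catenin for destruction, rose by 0.30 ± 0.08 on the log2 scale (adjusted p = 0.0051). NKD1 and DACT1 passed in the code-blocked fit, and NKD2, AXIN2, AXIN1, PRICKLE1 and BTRC were not (adjusted p from 0.32 to 0.928).

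Transcription factors induced by Wnt moved in both directions, 6 of 14 down (42.9% beside 15.9% of all genes) and 5 up (35.7% beside 14.3%). SP5, which binds GC-rich promoters, ranged from 19.2 to 43.9 CPM in vehicle (median 32.5) and stood at 6.83, 4.11, 4.24, 5.34 and 5.68 CPM (-2.36 ± 0.16, adjusted p = 2.36e-12), with no overlap. ASCL2 (-0.72), the stem cell factor of the crypt, CDX2 (-0.59), the intestinal homeobox factor, TCF7 (-0.53) and ETS2 (-0.39) fell, without overlap for ASCL2 and with overlap for the other genes. SOX9, a factor of crypt progenitors, rose instead, from 4.03 to 5.93 CPM in vehicle (median 4.53) to 8.04, 11.9, 9.4, 11 and 13.3 CPM (1.03 ± 0.12, adjusted p = 1.32e-07). SOX4 rose from a median of 155 CPM (116 to 174) to 211, 377, 327, 299 and 286 CPM (0.95 ± 0.13, adjusted p = 1.66e-06), and neither overlapped vehicle. MYC had 6433, 4603, 4845, 4702 and 5222 CPM against 3727 to 6534 CPM in vehicle (median 5183), at -0.02 ± 0.12 with 95% limits of -0.25 to 0.22 (adjusted p = 0.929). None of the factors named passed in the code-blocked fit (adjusted p from 0.0612 for SP5 to 0.915 for ASCL2), in which ASCL2 turned to 0.22.

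Of 22 other published Wnt targets, 12 fell (54.5% beside 15.9% of all genes) and 1 rose, with a median of -0.47. DEFA5, an α-defensin of Paneth cells, ranged from 48.8 to 179 CPM in vehicle (median 75.7) and stood at 1.12, 1.11, 0.854, 3.59 and 3.16 CPM (-4.91 ± 0.26, adjusted p = 6.25e-15). FGF20, a fibroblast growth factor, ranged from 3.67 to 6.74 CPM (median 4.9) and stood at 0.0683, 0.0284, 0.0534, 0.177 and 0.251 CPM, 37.7-fold lower by summed reads (32 against 2186, 95% limits 26.7 to 55.3 from counting error only). TNFRSF19, a receptor of the tumor necrosis factor family found on intestinal stem cells, fell from a median of 64.5 CPM (49.6 to 88.5) to 13.9, 17.4, 15.4, 13.8 and 24.4 CPM (-1.96 ± 0.17, adjusted p = 3.31e-10). Each of these 3 lay below every vehicle library. EPHB3, a receptor that positions crypt cells, was the 1 member that rose, from 9.1 to 14.7 CPM in vehicle (median 12.3) to 44.7, 42.7, 35.3, 34.1 and 45.4 CPM (1.67 ± 0.13, adjusted p = 3.87e-11), while its relative EPHB2 fell by 0.34 ± 0.09 on the log2 scale (adjusted p = 0.00346). DEFA5, FGF20, TNFRSF19 and EPHB3 passed in the code-blocked fit, and EPHB2 did not (adjusted p = 0.796).

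Receptors and destruction complex genes were mixed, with 7 of 27 down (25.9% beside 15.9% of all genes) and a median of -0.05, and the 4 that rose (14.8%) were near the 14.3% of all genes. FZD10, a Wnt receptor, ranged from 37.2 to 90.2 CPM in vehicle (median 70.3) and stood at 11.3, 10.4, 15.1, 10.8 and 22 CPM (-2.20 ± 0.18, adjusted p = 7.31e-11). FZD8, of the same family, fell by 0.99 ± 0.12 on the log2 scale (adjusted p = 1.55e-07). LGR4, an R-spondin receptor, rose from a median of 10.7 CPM (5.23 to 12.7) to 16.3, 23.8, 25.4, 24.6 and 18.1 CPM (1.05 ± 0.21, adjusted p = 0.000382). The groups did not overlap in any of the 3, of which FZD10 passed in the code-blocked fit and FZD8 (adjusted p = 0.538) and LGR4 (adjusted p = 0.937) did not.

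**Figure D3:**
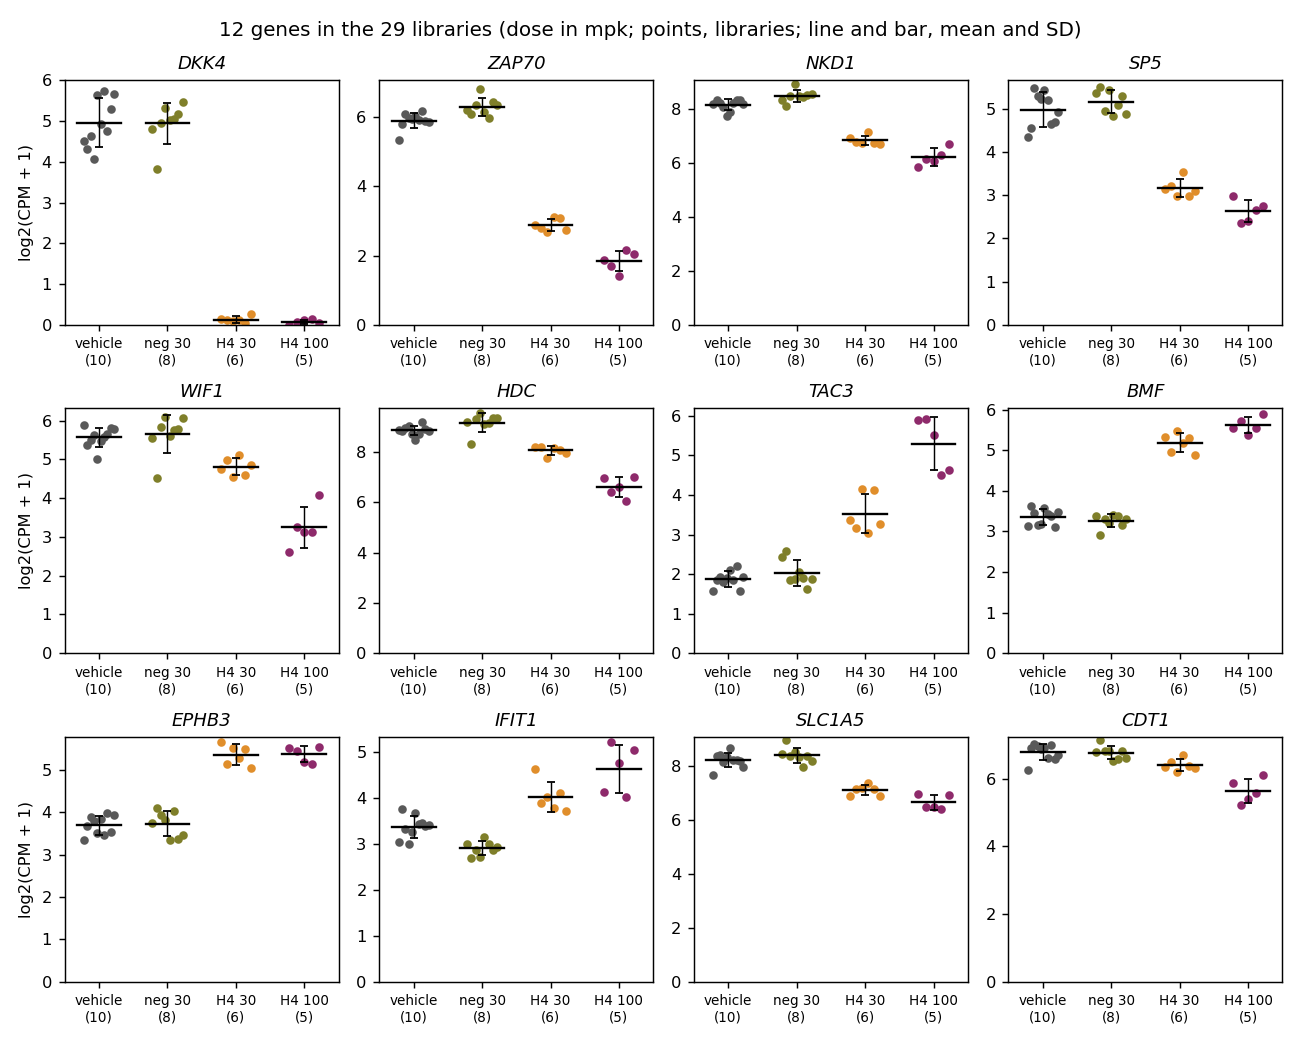
Values of 12 genes in all 29 libraries as log2(CPM + 1) (y axis), by group (x axis; neg, Helicon4neg; H4, Helicon4; dose in mpk; number of libraries in brackets); points are libraries, lines means and bars SD. The 5 libraries at 100 mpk lie apart from the 10 vehicle libraries in each of the 12 genes, and WIF1 and HDC are lower at 100 than at 30 mpk.

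Outside these lists, the largest falls were of genes for receptors, channels, enzymes and secreted proteins. ZAP70 (chr2:97713560-97739862, GRCh38), the tyrosine kinase that couples the T-cell receptor, had the smallest adjusted p of all genes tested. It ranged from 39.8 to 71.9 CPM in vehicle (median 59.9) and stood at 2.66, 2.27, 1.68, 3.48 and 3.17 CPM (-4.06 ± 0.13, adjusted p = 3.28e-20). CD3E, a chain of that receptor's complex, was not among the genes tested. HDC (chr15:50241947-50266026), the enzyme that makes histamine, fell from 353 to 584 CPM in vehicle (median 464) to 125, 84, 97.7, 64.5 and 128 CPM (-2.24 ± 0.15, adjusted p = 1.59e-12). Both genes lay below every vehicle library in all 5 treated libraries.

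CHRNA3, a nicotinic acetylcholine receptor subunit, fell from a median of 42.3 CPM (28.5 to 47.1) to 6.6, 8.39, 7.15, 7 and 10.4 CPM (-2.25 ± 0.11, adjusted p = 5.08e-16). KCNJ6, an inwardly rectifying potassium channel, fell from 22.4 CPM (13.7 to 26.9) to 1.96, 2.69, 2.24, 2.81 and 5.96 CPM (-2.48 ± 0.17, adjusted p = 2.01e-12). ADRA2C, an α2 adrenergic receptor, was 29.3-fold lower by summed reads (95% limits 23.7 to 36.6) and the semaphorin gene SEMA5B 21.1-fold (17.3 to 26.1). CNTNAP4, of the neurexin family, fell by 2.21 and POMC, the precursor of ACTH and the endorphins, by 2.67 on the log2 scale.

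Further falls were of SERPIND1 (-2.81), which encodes heparin cofactor II, RASL11B (-2.29), a small GTPase, and ACKR3 (-2.22), a scavenging receptor for CXCL12. EDAR (-2.08), the ectodysplasin receptor, LRRN4 (-2.03) and CEBPD (-1.99), a C/EBP factor, also fell. In 25 of the 25 largest falls the treated libraries lay below every vehicle library (4.13% of all genes). The choice of these genes by the same difference favors this. Library 5 was the highest of the 5 treated libraries in 17 of these falls. With the title code as a block ZAP70, HDC, CHRNA3, KCNJ6, SEMA5B, SERPIND1, RASL11B, ACKR3 and LRRN4 passed, and ADRA2C, POMC, CNTNAP4, EDAR and CEBPD were lost (adjusted p from 0.0801 to 0.631).

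The largest rise was of TAC3 (chr12:57010000-57028883, GRCh38), the neurokinin B precursor. It ranged from 1.97 to 3.61 CPM in vehicle (median 2.69) and stood at 58.2, 59.6, 44.9, 21.9 and 24 CPM (3.43 ± 0.21, adjusted p = 1.6e-13). PADI2, which converts arginine in proteins to citrulline, ranged from 2.74 to 4.76 CPM (median 4) and stood at 27.6, 38.5, 31.5, 18.4 and 36 CPM (2.64 ± 0.14, adjusted p = 2.88e-15). BMF (chr15:40087890-40108892), a BH3-only protein that promotes apoptosis, had the smallest adjusted p among the rises, from 7.62 to 11.5 CPM (median 9.55) to 46.1, 52.2, 40.9, 46.2 and 58.3 CPM (2.27 ± 0.11, adjusted p = 5.08e-16). Treated libraries were all above vehicle for these 3 genes, and TAC3 was lower in libraries 4 and 5 than in the other treated libraries.

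TNMD, a cartilage and tendon glycoprotein, rose by 2.60, HRC, a calcium-binding protein of the sarcoplasmic reticulum, by 2.11 and KNG1, the kininogen precursor, by 1.84 on the log2 scale. TMSB4X, the actin-sequestering thymosin β4, rose from a median of 37.5 CPM (31.7 to 43.8) to 134, 233, 133, 196 and 99.7 CPM (2.00 ± 0.20, adjusted p = 3.36e-09). AHNAK, a very large scaffold protein, rose by 1.81, the T-box repressor TBX2 by 1.77 and the FGF-binding protein FGFBP1 by 1.70. SPAG17, of the ciliary axoneme, went from a median of 59.4 CPM (30.7 to 106) to 207, 193, 236, 208 and 169 CPM (1.75 ± 0.21, adjusted p = 1.6e-07).

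MACROD2 (1.67), an ADP-ribose hydrolase, GPA33 (1.52), a surface antigen of intestinal epithelium, NXPH4 (1.51), a neurexophilin, SHISA3, which retains Wnt and FGF receptors in the ER, and TP53INP2 (1.48), an autophagy regulator, rose as well. SHISA3 stood at 32.1 CPM in library 4 and at 7.2 to 10.5 CPM in the other treated libraries. In 24 of the 25 largest rises the treated libraries lay above every vehicle library (4.67% of all genes), which their choice by the same difference likewise favors. TAC3, PADI2, BMF, HRC, AHNAK, TBX2, FGFBP1, GPA33, NXPH4 and TP53INP2 passed in the code-blocked fit, and TNMD, TMSB4X, KNG1, SPAG17, MACROD2 and SHISA3 were lost (adjusted p from 0.147 to 0.88).

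Genes that supply growing cells with amino acids, nucleotides and ribosomes fell by smaller amounts. Of 30 genes of the ATF4 amino acid response 18 fell and 1 rose (over all genes 15.9% fell and 14.3% rose), with a median of -0.42. SLC1A5, the glutamine transporter, also on the list of other Wnt targets, ranged from 204 to 408 CPM in vehicle (median 297) and stood at 124, 88.5, 89.2, 85.3 and 122 CPM (-1.57 ± 0.14, adjusted p = 2.82e-10), without overlap. SLC3A2 (-0.94) and SLC7A5 (-0.90), the chains of a large neutral amino acid transporter, SLC7A11 (-0.92), the cystine transporter, and SLC1A4 (-0.76) fell too. The 1 member that rose was ALDH1L2, by 0.45 ± 0.13 on the log2 scale (adjusted p = 0.01), a mitochondrial folate enzyme with a vehicle median of 1.33 CPM, named here after its value was seen. Cytosolic tRNA synthetases fell in 11 of 20 and rose in 0, SARS by 0.51, VARS by 0.61 and GARS by 0.41.

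Nucleotide synthesis genes fell in 16 of 30 (53.3%) with a median of -0.34, among them CAD (-0.71), which starts pyrimidine synthesis, and PAICS (-0.40) of purine synthesis, while CTPS2 rose (0.29). Ribosome biogenesis genes fell in 25 of 42 and rose in 0 (median -0.36), and the protein genes of the cytosolic ribosome fell in 7 of 85 (8.24%, below the 15.9% of all genes) with a median of -0.22. Genes of ER chaperones and the unfolded protein response fell in 13 of 25, with ERN1, the stress sensor IRE1, at -0.77 and DERL3, of ER-associated degradation, at -1.04. Cholesterol synthesis genes fell in 9 of 24 and fatty acid synthesis genes in 7 of 18, with FASN at -0.75. Of the genes named in these groups SLC7A11 passed in the code-blocked fit, and the other calls were lost (adjusted p from 0.11 to 0.946), with ALDH1L2 turned to -0.0851.

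DNA replication genes fell in 29 of 50 (58% beside 15.9% of all genes) and rose in 0, with a median of -0.33. CDT1, which licenses origins, ranged from 74.9 to 130 CPM in vehicle (median 118) and stood at 57.5, 36.6, 41.1, 46.5 and 67.6 CPM (-1.15 ± 0.13, adjusted p = 3.62e-08). POLD1 (-0.82), a DNA polymerase, E2F1 (-0.89), MCM3 (-0.63) of the replicative helicase and the ligase gene LIG1 (-0.55) also fell, and all 5 lay below every vehicle library. Cell cycle control genes fell in 9 of 22, with the cyclin gene CCND2 at -0.66, and mitosis genes in 6 of 41 (14.6%, near the 15.9% of all genes), with PLK1 at -0.41. In the code-blocked fit MCM3 passed and the other 6 did not (adjusted p from 0.3 to 0.986), with CCND2 turned to 0.0256.

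Replication-dependent histone genes moved the other way from the replication genes, with 18 of 30 up (60% against 14.3% of all genes), 1 down and a median of 0.48. Such transcripts mostly lack polyA tails, so libraries of polyA RNA see only the tailed ones. HIST1H2AC ranged from 4.47 to 8.75 CPM in vehicle (median 5.13) and stood at 16.5, 26.7, 17.5, 14.1 and 15.1 CPM (1.49 ± 0.15, adjusted p = 1.01e-08). HIST2H2BE went from a median of 28.9 CPM (23.5 to 38.9) to 68, 67.7, 61.3, 41 and 47.1 CPM (0.91 ± 0.12, adjusted p = 3.61e-07), and HIST1H3E (1.08) and HIST1H2BD (0.94) rose too. None of these 4 overlapped vehicle. HIST1H1E, named after its value was seen, was the 1 that fell (-0.48 ± 0.18, adjusted p = 0.047), on 93 reads against 399. Its call was lost without any of vehicle libraries 2, 3, 4, 5, 8, 9 and 10 or any 1 of the treated libraries (adjusted p from 0.0511 to 0.129). No histone gene named passed in the code-blocked fit (adjusted p from 0.0678 to 0.814), and near-identical copies on the list, such as HIST2H4A and HIST2H4B, may share reads.

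**Figure D4:**
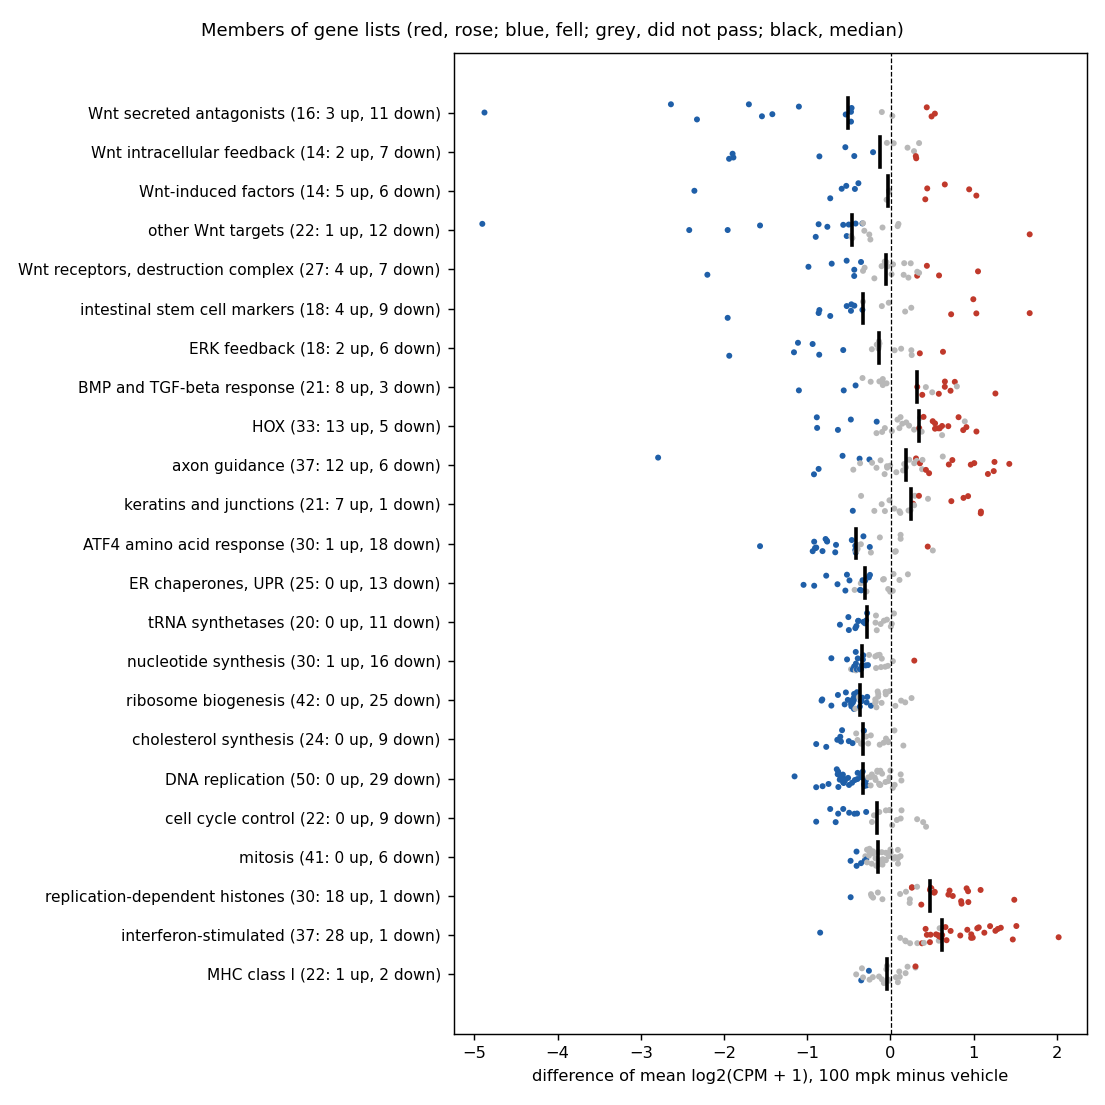
Members of 23 gene lists (rows; measured members and calls in brackets) by the difference of mean log2(CPM + 1) between 100 mpk and vehicle (x axis); red, rose; blue, fell; grey, did not pass; black bar, list median; dashed line, median of all genes tested. Interferon-stimulated genes (median 0.62) and histone genes (0.48) lie mostly to the right, and DNA replication (-0.33) and ribosome biogenesis (-0.36) to the left.

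Interferon-stimulated genes mostly rose, 28 of 37 up (75.7% against 14.3% of all genes) and 1 down, with a median of 0.62. IFIT1, which binds viral RNA, ranged from 6.96 to 12.5 CPM in vehicle (median 9.58) and stood at 16.6, 36, 26.1, 15.3 and 31.8 CPM (1.26 ± 0.16, adjusted p = 5.23e-07). BST2, the tetherin that holds back budding virus, ranged from 3.34 to 11.2 CPM (median 6.13) and stood at 15.3, 33.1, 17.2, 14.3 and 22.4 CPM (1.47 ± 0.24, adjusted p = 2.07e-05). IFIT3 went from a median of 1.78 CPM (1.4 to 3.72) to 4.6, 11, 8.2, 4.43 and 11.7 CPM (1.51 ± 0.21, adjusted p = 2e-06). The groups did not overlap, and libraries 1 and 4 had less of all 3 transcripts than libraries 2, 3 and 5. Over the 28 genes that rose, library 2 was the highest of the treated libraries in 20 and library 4 the lowest in 18.

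IFI44L rose by 2.02 and HERC6, a ubiquitin ligase, by 1.06. EPSTI1, named after its value was seen, was the member that fell (-0.85 ± 0.13, adjusted p = 5.18e-06). Genes of MHC class I, which interferon also induces, and of antigen processing did not follow. Of 22 on this list 1 rose (4.5%) and 2 fell (9.1%), beside 14.3% and 15.9% of all genes, with a median of -0.05. The rise was of PSMB10 (0.30) and the falls were of CALR (-0.35) and PDIA3 (-0.26), both also on the ER chaperone list. No HLA gene on the list passed, nor did B2M. With the title code as a block 9 of the 37 passed, IFIT1, BST2 and IFI44L among them, and IFIT3 (2.25, adjusted p = 0.0867), HERC6 and EPSTI1 did not. Summed leukocyte markers were lower at 100 mpk, at 53.7 to 60.1 CPM against 60.7 to 72.9 CPM in vehicle, and their part in these rises was not tested.

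Of 18 ERK feedback genes 6 fell and 2 rose (33.3% and 11.1%, beside 15.9% and 14.3% of all genes). SPRY2, a receptor tyrosine kinase antagonist, ranged from 9.17 to 18.2 CPM in vehicle (median 12.8) and stood at 2.03, 1.73, 2.43, 4.14 and 3.22 CPM (-1.94 ± 0.16, adjusted p = 5.8e-11), and ETV5, an ETS factor, fell from a median of 437 CPM (336 to 578) to 161, 222, 196, 153 and 240 CPM (-1.16 ± 0.12, adjusted p = 1.88e-08). Neither overlapped vehicle. SPRY4 (-1.11), ETV4 (-0.86) and the phosphatase gene DUSP2 (-0.94) fell too, and in library 4 SPRY4 stood at 13 CPM and ETV4 at 30.9 CPM, within the vehicle ranges. Genes that respond to BMP and TGF-β rose in 8 of 21 (38.1%) and fell in 3 (14.3%, near the 15.9% of all genes), with ID3 at 1.26, ID2 at 0.65, the inhibitory SMAD6 at 0.72 and the decoy receptor BAMBI at -1.10. ID3 also rose with Helicon4neg against vehicle (1.03, adjusted p = 0.000526), and 100 mpk and Helicon4neg did not differ by the test (adjusted p = 0.406). SPRY2 passed in the code-blocked fit and the others did not (adjusted p from 0.135 to 0.959), with ID2 turned to -0.11.

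HOX genes, which set position along the body axis, rose in 13 of 33 and fell in 5 (39.4% and 15.2%, beside 14.3% and 15.9% of all genes; median 0.34), and HOXA13, HOXB13, HOXC12 and HOXD1 rose by 0.91, 0.87, 0.82 and 1.03 on the log2 scale, while HOXB8 fell by 0.89. HOXB13 went from a median of 36.7 CPM (24.9 to 38.9) to 68.9, 64.7, 62.3, 58.2 and 67 CPM, without overlap. Among 21 keratin and junction genes 7 rose (33.3%) and 1 fell (4.76%), with JUP (0.93), or plakoglobin, the tight junction gene CLDN4 (1.09) and the desmosomal DSC2 (1.08) among the rises. JUP went from a median of 54.9 CPM (31 to 66.1) to 129, 106, 92.7, 77.3 and 113 CPM, and CLDN4 from 1.06 CPM (0.689 to 1.87) to 3.83, 4.17, 3.52, 3.19 and 3.29 CPM.

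Axon guidance genes rose in 12 of 37 (32.4% beside 14.3% of all genes) and fell in 6 (16.2% beside 15.9%), with a median of 0.19. NRP2, a semaphorin and VEGF co-receptor, went from a median of 452 CPM (397 to 560) to 746, 1102, 943, 872 and 1051 CPM (1.01 ± 0.12, adjusted p = 6.85e-08). SEMA5A rose by 1.25 and SEMA6D by 1.43, against the fall of SEMA5B, and NRP2 and both of these lay above every vehicle library. Of 8 enterocyte markers 3 rose and 3 fell, with the tetraspanin gene TSPAN8 at 0.79, FABP2, which carries fatty acids, at -1.63 and the carbonic anhydrase gene CA2 at -0.65. HOXB13, JUP, CLDN4 and CA2 passed in the code-blocked fit, and the calls of the other genes named in these groups were lost (adjusted p from 0.112 to 0.991).

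Summed markers of endothelial cells, fibroblasts and leukocytes were lower at 100 mpk. Those of muscle, fat and skin were not. The 3 of 17 tested summed to 45.1 to 63.5 CPM against 40.7 to 61.2 CPM in vehicle (no test made). The 6 of 17 endothelial markers tested summed to 109 to 157 CPM at 100 mpk and 150 to 208 CPM in vehicle (p = 0.00133 by a two-sided exact permutation test, 0.00533 after adjustment over 8 measures), and PECAM1, CDH5 and VWF were not among the genes tested. Fibroblast and matrix markers, 14 of 24 tested, summed to 320 to 470 CPM against 424 to 574 CPM (exact p = 0.004, adjusted p = 0.0107), with LUM, DCN and COL1A2 not among those tested. The sum follows the abundant members: of the 14, 4 rose and 4 fell (28.6% each, beside 14.3% and 15.9% of all genes). Their median log2 fold change was 0.18. Leukocyte markers, 8 of 19 tested, summed to 53.7 to 60.1 CPM against 60.7 to 72.9 CPM (exact p = 0.000666, adjusted p = 0.00533), and no red cell marker of 6 was tested. In such bulk samples fewer cells of a type, less RNA per cell and a change in the tumor cells' own transcripts of these genes cannot be told apart. Whether the reads came from host or tumor cells was not tested. The part of these sums in the other gene groups was not tested either.

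Members of the marker lists did not move as one. CLDN5, of endothelial tight junctions, fell from a median of 13.7 CPM (6.44 to 25.6) to 3.89, 2.75, 2.3, 2.38 and 3.66 CPM (-1.86 ± 0.25, adjusted p = 1.04e-06). BGN, the matrix proteoglycan biglycan, fell from 48.2 CPM (28.6 to 57.9) to 7.56, 9.61, 8.41, 11.7 and 20.4 CPM (-1.94 ± 0.17, adjusted p = 2.82e-10), and MMP2, a matrix protease, by 1.13 on the log2 scale. Fibronectin (FN1) rose from a median of 22.2 CPM (15.1 to 29.3) to 40.9, 46.4, 45.3, 38.2 and 55.7 CPM (1.06 ± 0.19, adjusted p = 5.69e-05), and neither it nor the 3 that fell overlapped vehicle. CTSS, a protease of leukocytes, fell by 0.77 on the log2 scale. Of the 8 leukocyte markers 3 fell and 1 rose (37.5% and 12.5%, beside 15.9% and 14.3% of all genes). Their median was -0.06, with 4 below 0 and 4 above. BGN passed in the code-blocked fit, and CLDN5, MMP2, FN1 and CTSS did not (adjusted p from 0.163 to 0.837). The labels name no mouse genome, and how reads from host cells were treated is not given in the sources used here.

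Direct comparison of 100 with 30 mpk found 233 genes higher (1.74%) and 249 lower (1.86%) at the higher dose, 3.6% of those tested, of which 457 had also been called against vehicle in the same direction and 2 in the opposite one. These counts share the 100 mpk libraries. Of the 25 largest falls 14 differed between doses, and of the 25 largest rises 12. The choice of these genes by their values at 100 mpk favors such differences. KCNJ6 was lower at 100 mpk by 1.76 ± 0.19 (adjusted p = 3.72e-06), WIF1 by 1.56 ± 0.22 (adjusted p = 5.41e-05), HDC by 1.45 ± 0.17 (adjusted p = 8.14e-06) and ZAP70 by 1.04 (adjusted p = 4.23e-05) on the log2 scale. TAC3 was higher at 100 mpk by 1.77 ± 0.23 (adjusted p = 2.46e-05), HAPLN1, a hyaluronan link protein, by 1.67 ± 0.25 (adjusted p = 0.000145), TMSB4X by 1.39 ± 0.22 (adjusted p = 0.000218) and CA10, a carbonic anhydrase relative that binds neurexins, by 1.27 ± 0.16 (adjusted p = 1.12e-05). CA10 had a vehicle median of 0.537 CPM (0.269 to 0.921) and stood at 9.59, 14.1, 10.6, 11.4 and 9.45 CPM at 100 mpk, and HAPLN1 had 0.568 CPM (0.275 to 1.15) and 2.66, 22.5, 9.1, 13.6 and 11.7 CPM.

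For 3 other genes the difference between doses did not pass. EPHB3 differed by 0.01 ± 0.15, SOX9 by -0.17 ± 0.14 and BAMBI by -0.03 ± 0.12 on the log2 scale (smallest adjusted p = 0.563). DKK4 was near 0 at both doses, with means of 0.0533 CPM at 100 mpk and 0.0937 CPM at 30 mpk, where log2(CPM + 1) cannot tell the doses apart. Within the Wnt groups NKD1 (-0.62, adjusted p = 0.00766), NKD2 (-0.99, adjusted p = 0.000904), AXIN2 (-0.50, adjusted p = 0.00469), NOTUM (-0.61, adjusted p = 0.0283) and FZD10 (-0.88, adjusted p = 0.00901) were lower at 100 than at 30 mpk. SP5 (-0.54, adjusted p = 0.0987) and DKK1 (-0.18, adjusted p = 0.705) did not pass. CDT1 (-0.76, adjusted p = 0.00167), POLD1 (-0.61, adjusted p = 0.00415) and CAD (-0.62, adjusted p = 0.00379) differed too. The number of genes that differed fell to 203, 240 or 316 without library 2, 3 or 4 at 100 mpk, and to 10 in the code-blocked fit. It was 750 with DESeq2, 1051 without vehicle library 6 and Helicon4neg library 2, 2000 with a length slope covariate and 3904 with library weights.

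**Figure D5:**
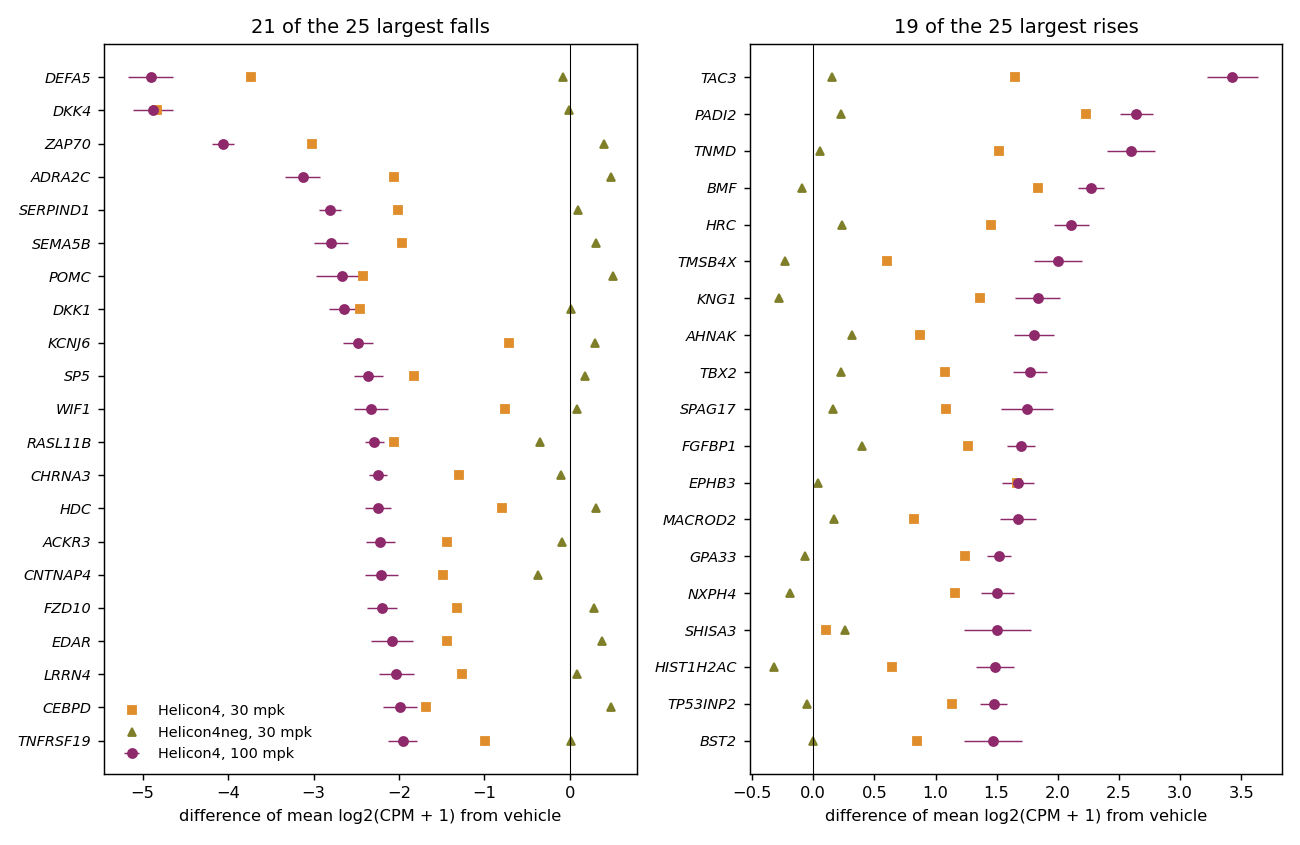
Differences of mean log2(CPM + 1) from vehicle (x axis) for 21 of the 25 largest falls (left) and 19 of the 25 largest rises (right) at 100 mpk, those named in the text (circles, bars are SE), with the values at 30 mpk (squares) and for Helicon4neg at 30 mpk (triangles); the 3 share the vehicle libraries. Helicon4neg lies between -0.38 and 0.50 for the falls and between -0.32 and 0.40 for the rises, while 30 mpk reaches from -4.83 to -0.72 and from 0.10 to 2.23.

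Against Helicon4neg, given at 30 mpk, 4649 genes differed at 100 mpk (34.8% of those tested). Dose and compound differ together in that comparison, which therefore separates neither. Of the 4043 genes called against vehicle, 3083 also differed from Helicon4neg in the same direction, and both comparisons use the 5 libraries at 100 mpk. All of the 25 largest falls and all of the 25 largest rises were among them, which their choice by the 100 mpk values likewise favors. For the Helicon4neg libraries themselves the log2 fold change against vehicle was 0.01 for DKK1, -0.01 for DKK4, 0.18 for SP5 and 0.33 for NKD1, and none of these passed (smallest adjusted p = 0.0638), but NOTUM (0.52, adjusted p = 0.0145) and ZAP70 (0.40, adjusted p = 0.0347) were higher with Helicon4neg than with vehicle.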

How the data were processed

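Tumor RNA was sequenced on a NovaSeq S4. Per the submitters' processing notes, reads were handled with STAR 2.7.7a, Trimmomatic 0.39, edgeR 4.0.2 and featureCounts (Subread 2.4.2), with GRCh38 named; settings and annotation are not given in the sources used here. The labels name both the NEBNext Ultra II Directional and the TruSeq stranded mRNA kit. The authors deposited 1 table whose signal values are reads per 10 to the power 6 of a scaled library size, called CPM here. A low-value check found whole reads in 11 of 29 columns and a search over step sizes in all 29 (tolerance 0.05 reads), so tests on recovered reads serve only as alternatives.

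Genes that reached 1 CPM in 5 or more libraries entered limma 3.58.1 (R 4.3.3, trend and robust fitting, two-sided) on log2(CPM + 1), with all 29 libraries in 4 groups sharing 1 estimate of spread and Benjamini-Hochberg adjustment over all genes (threshold 0.05). The fit was tested on simulated data. Library measures were compared by exact permutation tests. Values after ± are SE on the log2 scale and SD otherwise. Intervals of read ratios (95%) cover counting error only. Alternatives changed the pseudocount, filter, scaling, fit, blocks, libraries and tool (edgeR 4.0.16, DESeq2 1.42.0).

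Members and gene lists were chosen with earlier results of these data known. Named genes were those of the Wnt lists, the 25 largest rises and falls (mean of at least 5 CPM), the 10 smallest adjusted p in each direction, in each list up to 5 members by smallest adjusted p and the member with the highest CPM, and the 10 largest dose differences in each direction; those printed are part of them. Promoters are from RefSeq (GRCh38.p14) and gene positions from GENCODE 29. Same-numbered vehicle and 100 mpk libraries are not stated to share an animal or day. A gene that the rule names is not reported here.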

Additional observations from a re-analysis of the deposited data

Results flagged for a closer look

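Of 276 groups of libraries checked, 18 held 1 library far from the rest by Dixon's ratio, and chance gives about 1 in 20. Among vehicle libraries, library 1 was low for ZAP70 (39.8 CPM, next 54.7), PLK1 (97.0 CPM, next 136) and JUP (30.97 CPM, next 45.03). Library 6 was low for AHNAK (1.02 CPM) and CAD (166.5 CPM, next 238) and high for BAMBI (81.6 CPM). Library 4 was high for ID2 (18.0 CPM) and HOXD1 (1.10 CPM), library 8 low for LGR4 (5.23 CPM) and library 10 high for KNG1 (5.72 CPM).

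At 100 mpk, library 4 was low for EDAR (9.23 CPM, next 17.9) and high for SHISA3 (32.1 CPM, next 10.5) and DSC2 (18.5 CPM, next 7.66). Library 1 was low for SEMA5A (58.5 CPM, next 85.3) and SEMA6D (2.12 CPM, next 3.74). Library 3 was low for HIST1H1E (0.187 CPM). Library 5 was high for SEMA5B (0.852 CPM, next 0.337) and for the summed endothelial markers (157 CPM, next 120.0).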

How the results depend on the processing

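Of 128 named genes called against vehicle, 125 kept direction and call in every setting that tested them, the title code block aside. KREMEN1, ZNRF3 and HIST1H1E did not. Not every setting tested all 130 named genes. A filter of at least 5 CPM in 5 libraries held 117 of them, and a fit of only the groups compared 129. With the title code block 123 of the 128 kept their direction and 42 their call. It gave 141 calls against vehicle, 10 between doses and 189 against Helicon4neg, and turned SOSTDC1 (-0.0059), CCND2 (0.0256), ID2 (-0.11), ASCL2 (0.22) and ALDH1L2 (-0.0851). Library weights gave 6223 calls against vehicle and 3904 between doses. On recovered reads, 100% of them whole, edgeR called 4047 and DESeq2 4438 genes against vehicle. Between doses, DESeq2 gave 750, leaving out vehicle library 6 and Helicon4neg library 2 gave 1051, and a length slope covariate, chosen after seeing the data, gave 2000. A minimum of 1.5-fold left 1258, 175 and 1595 calls against vehicle, between doses and against Helicon4neg. Leaving out 1 library gave 2947 to 4378, 203 to 695 and 3702 to 4945. Causes of these differences were not tested. The replicate number as a block gave 4431, 366 and 4468 calls, lost KREMEN1 and ZNRF3 and moved MYC, not called, to 0.0342; leaving out 1 library put MYC at -0.0986 to 0.0221. Residuals of same-numbered vehicle and 100 mpk libraries correlated at -0.327 to 0.313, 1 of 5 pairs was above 0.1, and 0 libraries correlated best with their own number. Under about 1 CPM the filter and log2(CPM + 1) limit what can be seen, since 1 read was 0.016 to 0.0468 CPM.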

Other observations

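Further gene lists were examined at 100 mpk against vehicle. Hedgehog pathway genes rose in 4 of 9 and fell in 0 (median log2 fold change 0.26), while Notch pathway genes rose in 1 of 18 and fell in 5 (median -0.26). Immediate early genes fell in 6 of 22 and rose in 1 (median -0.28). Lysosome and autophagy genes fell in 10 of 28 and rose in 4. Over all genes tested 14.3% rose and 15.9% fell.

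Nuclear genes of oxidative phosphorylation had 1 rise and 6 falls among 71 (median -0.09), and heat shock genes had 2 rises and 1 fall among 18. Glycolysis and hypoxia genes rose in 5 of 33 and fell in 5 (15.2% each), near the shares over all genes, and p53 targets rose in 6 of 23 and fell in 5. Genes of the TCF and β-catenin complex itself rose in 4 of 21 and fell in 3 (median 0.09).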
